A study of Mus musculus with 4 samples.

Results

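The genes described here are 10 CC chemokines, Ccl2, Ccl3, Ccl4, Ccl5, Ccl6, Ccl7, Ccl9, Ccl17, Ccl22 and Ccl24, out of 22180 genes that had a probe set annotated with a single gene symbol. They were taken by name from the array's annotation. Each had 1 such probe set, and all 10 passed the filter on low values that left 14652 genes to test. CC chemokines are small secreted proteins named for adjacent cysteines near their start. They bind G protein-coupled receptors of the CCR family on leukocytes and guide the cells along a gradient. Dendritic cells that meet a bacterial product secrete them to call in monocytes, immature dendritic cells and T cells.

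The cells were dendritic cells grown from the bone marrow of C57BL/6 mice and harvested on day 7 of culture. The sulforaphane group spent 2 h in 0.3 µM sulforaphane, a compound found in broccoli and known to activate NRF2, a transcription factor of antioxidant genes. It was given in DMSO, which the DMSO group received alone. Both groups then had 1 h of LPS (lipopolysaccharide of E. coli, 100 ng/ml), which cells sense through TLR4. Each group had 2 arrays, and because both groups had LPS, induction by LPS itself was not measured. The labels do not say whether replicates came from separate mice or cultures, and p-values therefore measure only the spread between these arrays, which may be technical. Values are log2 expression from Affymetrix arrays normalized together by RMA. An array value depends on the probes as well as on the transcript, so levels of different genes are not compared as amounts of RNA.

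The arrays had medians between 3.24 and 3.27 and interquartile ranges between 3.41 (DMSO replicate 1) and 3.62 (sulforaphane replicate 2). Log2 differences between arrays of different groups had an SD of 0.266 to 0.317 over genes, against 0.209 between the sulforaphane arrays and 0.261 between the DMSO arrays. The 10 NRF2 targets were listed with earlier results of these data known, so they are not an independent check of exposure. All 10 had higher values in both sulforaphane arrays, where 24.0% of all genes were higher without overlap. Of these 10, 2 passed limma over all genes, as did 0.130% of all genes, Slc40a1 (1.79) and Osgin1 (1.57). Among markers of the labelled cell type, Itgax, which encodes CD11c, lay at 11.33 and 11.32 in sulforaphane arrays and at 11.26 and 11.26 in DMSO arrays, while Flt3 lay at 4.34 and 4.69 against 4.92 and 4.95. Of 9 dendritic cell markers tested, 0 passed limma over all genes, with 5 below 0 and 4 above. All 5 below 0 were lower without overlap, and 2 of the others were higher without overlap. Among all genes 19.5% were lower and 24.0% higher in this way. The markers with the smallest p had lower values, Irf4 (-0.87, adjusted p = 0.0565) and Batf3 (-0.64, adjusted p = 0.140). Ciita (-0.46), Flt3 and Zbtb46 (-0.34) were the others below 0. The 4 above 0 included H2-Ab1 (0.26), which was higher in both sulforaphane arrays. Some marker genes of other cell types also had high values. The mean log2 level over 8 neutrophil genes was 9.62 and 9.50 in sulforaphane arrays and 9.33 and 9.60 in DMSO arrays. Over 5 eosinophil genes it was 7.75 and 7.78 against 7.82 and 7.90, with 4-array means of single genes from 3.58 to 11.05. Macrophage markers and mast cell and basophil markers are given further below.

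Sequence upstream of the transcription start was matched by symbol for 5 of the 10 genes, Ccl3, Ccl6, Ccl9, Ccl17 and Ccl22, from RefSeq on GRCm38.p6. The stretches of 250 bases before the start are shown for Ccl3, a gene beside Ccl4 whose values are set against those of Ccl4, and for Ccl9 and Ccl17, which held a searched motif. Capitals mark matches to the motifs listed after them.
Ccl3, chr11:83649379-83649628, minus strand: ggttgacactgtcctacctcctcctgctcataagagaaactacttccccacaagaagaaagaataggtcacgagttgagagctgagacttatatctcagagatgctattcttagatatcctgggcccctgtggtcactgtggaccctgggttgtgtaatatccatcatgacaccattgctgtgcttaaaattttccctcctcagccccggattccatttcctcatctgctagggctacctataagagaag
Ccl9, chr11:83578637-83578886, minus strand: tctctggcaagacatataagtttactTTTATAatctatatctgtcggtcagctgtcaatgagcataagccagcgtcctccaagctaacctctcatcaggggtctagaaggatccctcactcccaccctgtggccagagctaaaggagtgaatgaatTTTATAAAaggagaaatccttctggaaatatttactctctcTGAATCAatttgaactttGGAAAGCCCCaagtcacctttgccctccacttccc
Ccl17, chr8:94810203-94810452, plus strand: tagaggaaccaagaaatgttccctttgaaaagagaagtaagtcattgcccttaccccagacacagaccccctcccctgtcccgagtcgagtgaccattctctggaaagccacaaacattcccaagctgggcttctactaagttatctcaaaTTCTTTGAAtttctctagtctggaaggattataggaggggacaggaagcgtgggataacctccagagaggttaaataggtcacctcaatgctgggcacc
Both strands were searched for 6 motifs. The NF-kB consensus, a site of the factor that LPS activates, matched in 1 of the 5 stretches, Ccl9 (GGAAAGCCCC, 35 to 26 bases before the start), and in 3.90% of 32851 promoters of the same length. The AP-1 site (TGANTCA) matched in Ccl9 as well (53 to 47 bases before the start) and in 6.75% of all promoters. A STAT core (TTCNNNGAA) matched in Ccl17, 99 to 91 bases before the start, and in 7.02% of all promoters. The TATA element (TATAAA) matched in Ccl9 and in 12.4% of all promoters, with a pair of its matches overlapping on opposite strands. The core of the interferon-stimulated response element (GAAA, any 2 bases, then GAAA; 2.98% of all promoters) and of the antioxidant response element that NRF2 binds (TGACNNNGC, 10.2%) matched in 0 of the 5. Matches describe letters in these windows only. Upstream sequence of Ccl2, Ccl4, Ccl5, Ccl7 and Ccl24 is not analysed here.

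The comparison asked which of these chemokine transcripts differed in LPS-stimulated dendritic cells after sulforaphane. The 10 genes fell into 3 with lower values in both sulforaphane arrays, Ccl2, Ccl4 and Ccl7, and 7 whose groups overlapped. Lower values without overlap were found in 19.5% of all genes. The lower 3 were about 1.54-fold (Ccl2), 1.97-fold (Ccl4) and 2.15-fold (Ccl7) below DMSO. The differences of the other 7 ran from -0.033 (Ccl9) to 0.089 (Ccl5) on the log2 scale. None of the 10 passed limma at an adjusted p of 0.05 over all genes (0 of 10), against 0.130% of all genes that did and 0.0683% that did so in the lower direction. An unadjusted p under 0.05 by limma was reached by 3 of 10, all lower, where 13.0% of all genes reached it in either direction and 5.87% in the lower one. Overlapping groups, found in 7 of the 10 genes, were found in 56.4% of all genes.

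**Figure D1:**
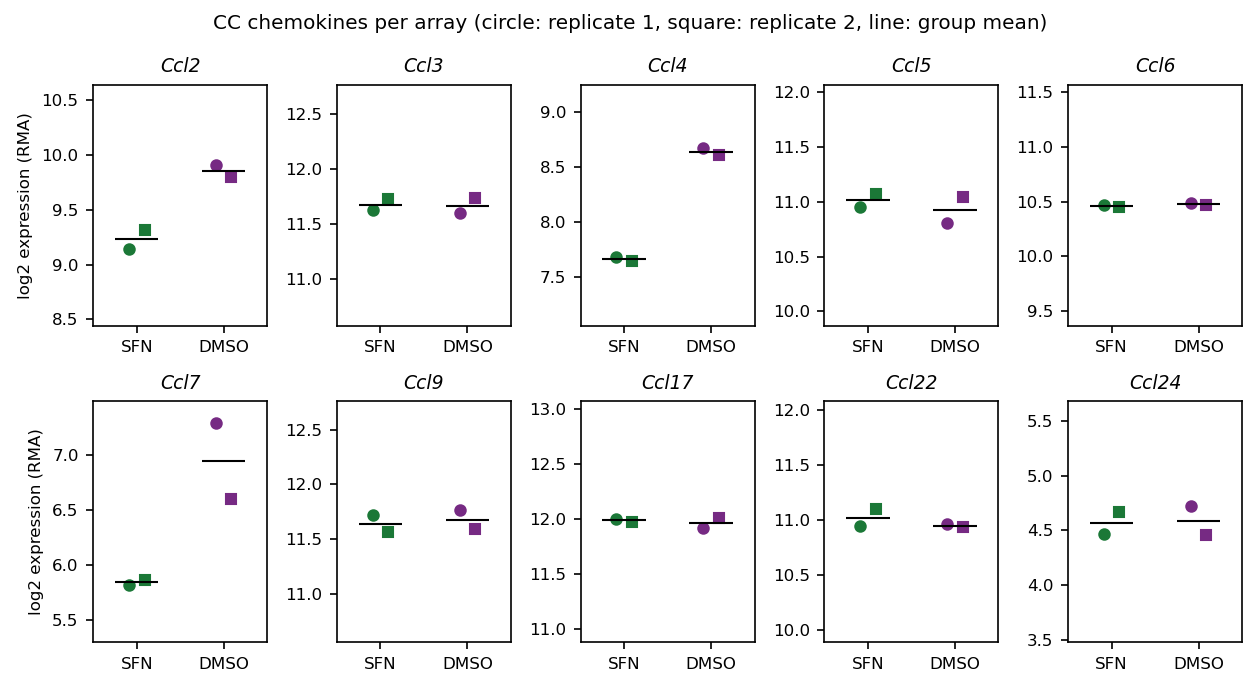
Log2 expression (y axis, RMA) of each CC chemokine gene in the sulforaphane (SFN, green) and DMSO (purple) arrays. Circles are replicate 1, squares replicate 2 and lines group means, and every panel spans the same number of log2 units. The groups are apart for Ccl2, Ccl4 and Ccl7 and overlap for the other 7 genes.

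Ccl4, which attracts monocytes, T cells and natural killer cells, had the smallest p of the 10. Its log2 expression was 7.69 and 7.65 in sulforaphane arrays, against 8.68 and 8.61 in DMSO arrays. The arrays of each group lay within 0.038 (sulforaphane) and 0.069 (DMSO) of each other, and 0.92 log2 units separated the groups. The difference was -0.98 ± 0.11 (SE, n = 2 per group, 95% interval -1.24 to -0.72), with an adjusted p of 0.0510 by limma, just short of the threshold. By p it stood at rank 24 of the 14652 genes. The adjusted p by limma passed under 4 of 13 other settings and ranged from 0.0038 to 0.348 over them, while the difference stayed between -1.01 and -0.94.

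Ccl2 and Ccl7 encode monocyte chemoattractants that act through CCR2, the receptor by which monocytes leave the marrow and enter inflamed tissue. Their genes lie next to each other in the RefSeq annotation. Ccl2 had 9.14 and 9.32 in sulforaphane arrays, against 9.90 and 9.80 in DMSO arrays. The groups did not overlap, and the 0.48 log2 units between them exceeded the gap within either group (0.18 and 0.11). The difference was -0.62 ± 0.12 (SE, 95% interval -0.91 to -0.33, adjusted p = 0.125 by limma). It lay under the 1.5-fold mark without sulforaphane replicate 1 (-0.53) and without DMSO replicate 1 (-0.57).

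Ccl7 had 5.81 and 5.86 in sulforaphane arrays, against 7.29 and 6.59 in DMSO arrays. The sulforaphane arrays lay close together and the DMSO arrays 0.70 apart, about as far as the 0.73 that separated the groups. The difference was -1.11 ± 0.23 (SE, 95% interval -1.66 to -0.55, adjusted p = 0.147 by limma). It was -0.76 without DMSO replicate 1 and -1.46 without DMSO replicate 2, so its size rests on which DMSO array is used. In a fit that lets the variance follow the expression level, Ccl2 (adjusted p = 0.0203), Ccl4 (0.0038) and Ccl7 (0.0478) all passed, among 249 genes against 19 in the fit without that trend. In these bulk arrays fewer cells that make a chemokine and less of its RNA per cell cannot be told apart.

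A difference of at least 1.5-fold with no overlap of the groups, a description of size without a test, was met by Ccl2, Ccl4 and Ccl7 in the lower direction, 3 of the 10 genes. Of all genes tested, 1.49% met it in the lower and 1.32% in the higher direction, 2.81% in all. Lower values without overlap at any size were found in 19.5% of all genes. The median difference of the 10 genes was -0.019, against 0.018 over all genes tested.

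**Figure D2:**
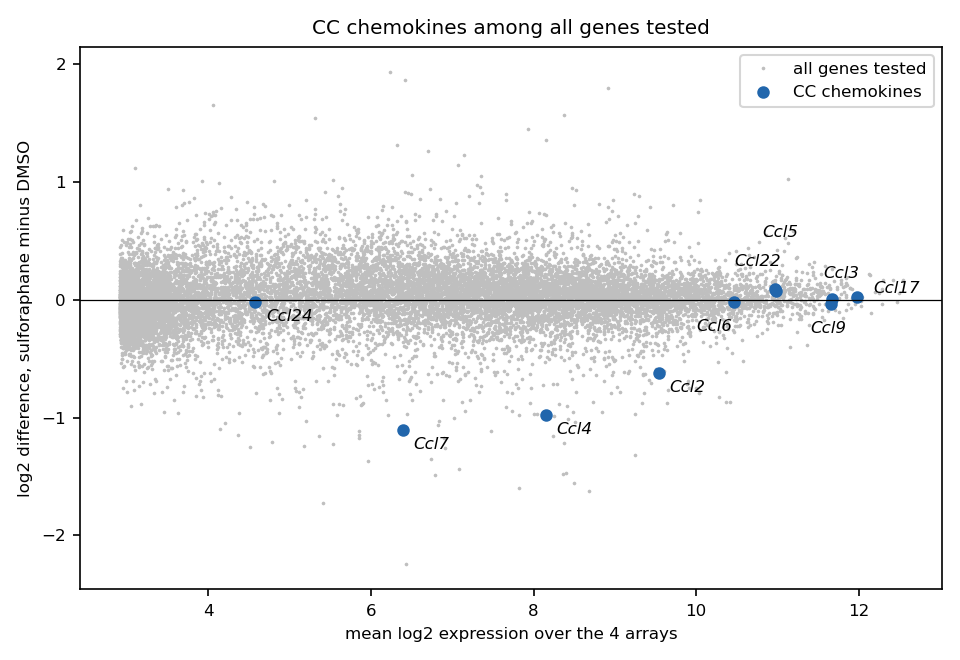
Log2 difference (y axis, sulforaphane minus DMSO) against mean log2 expression over the 4 arrays (x axis) for the 14652 genes tested (grey) and the CC chemokines (blue). Ccl2, Ccl4 and Ccl7 lie at -0.62, -0.98 and -1.11, and the members above a level of 10 lie near 0, where the grey cloud is narrow.

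Ccl3 and Ccl5 showed no difference beyond the arrays' spread. Ccl3, an early chemoattractant of monocytes and T cells, had 11.62 and 11.72 in sulforaphane arrays, against 11.60 and 11.73 in DMSO arrays. Its groups overlapped fully, and the 95% interval of the difference ran from -0.27 to 0.29. Ccl5, also called RANTES, which draws T cells and monocytes, had 10.96 and 11.07 in sulforaphane arrays, against 10.81 and 11.04 in DMSO arrays. DMSO replicate 1 was the lowest of its 4 arrays, and the interval was -0.23 to 0.40. Both intervals lie above a difference as large as that of Ccl2 (-0.62).

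Ccl6 and Ccl9 are chemokines of mouse myeloid cells that act through CCR1, and their genes are neighbours. Ccl6 had 10.47 and 10.45 in sulforaphane arrays, against 10.49 and 10.47 in DMSO arrays. It was the steadiest of the 10 genes, with gaps of 0.020 and 0.022 between the arrays of a group and an interval of -0.27 to 0.24. Ccl9 had 11.72 and 11.57 in sulforaphane arrays, against 11.76 and 11.59 in DMSO arrays, with an interval of -0.34 to 0.27. In both groups replicate 1 was the higher array for Ccl9.

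Ccl17 and Ccl22 are the ligands of CCR4, made by dendritic cells to attract helper and regulatory T cells, and are separated in the annotation by the gene of another chemokine, Cx3cl1. Ccl17 had 12.00 and 11.97 in sulforaphane arrays, against 11.92 and 12.01 in DMSO arrays (95% interval -0.24 to 0.29). Ccl22 had 10.94 and 11.10 in sulforaphane arrays, against 10.96 and 10.94 in DMSO arrays (95% interval -0.21 to 0.35). Sulforaphane replicate 2 was the highest array for Ccl22, and the groups of both genes overlapped. Ccl24, a ligand of CCR3 that attracts eosinophils, was the dimmest of the 10 probe sets, with 4.47 and 4.67 in sulforaphane arrays, against 4.72 and 4.46 in DMSO arrays (95% interval -0.36 to 0.32).

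The overlapping genes other than Ccl24 all lay near the top of the scale, at or above the 96.2th percentile of mean level among genes tested, up to 99.9 for Ccl17. Ccl2, Ccl4 and Ccl7 lay at the 90.3th, 73.7th and 50.9th percentile. Of the 550 genes with a mean at or above that of Ccl6, 0 were at least 1.5-fold lower without overlap and 1 was higher, and the SD of the differences was 0.139, against 0.241 over all genes. Among 5779 genes with means between those of Ccl7 and Ccl2, 1.90% were lower by that rule. The level was chosen as a split after the values were seen, and its part in which chemokines differed was not tested.

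**Figure D3:**
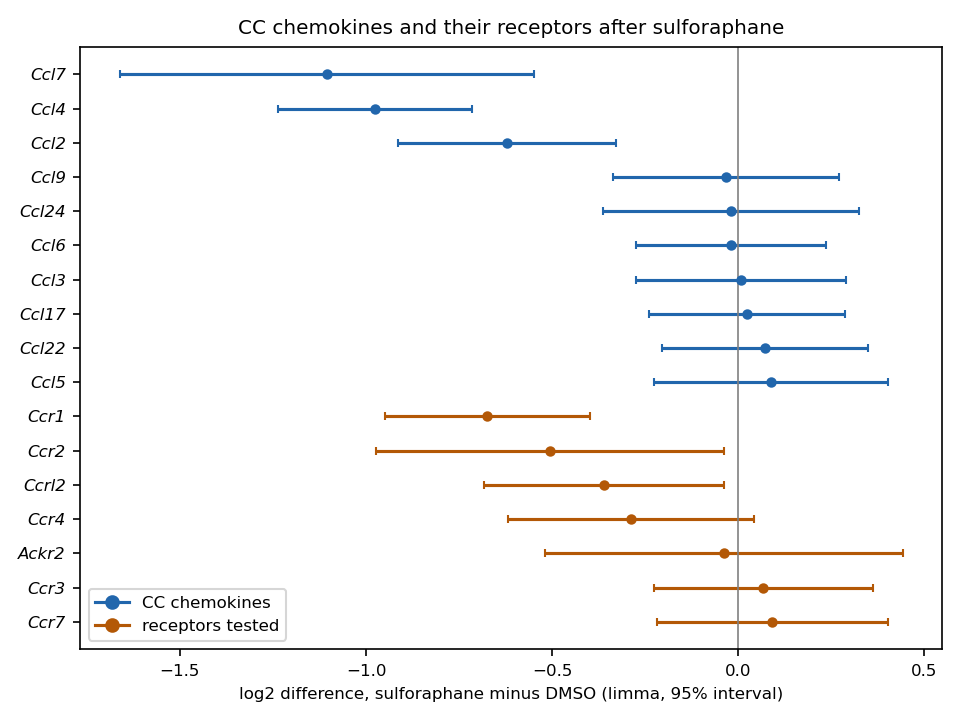
Log2 difference (x axis, sulforaphane minus DMSO, points) with its 95% interval by limma (bars) for the CC chemokine genes (blue) and the receptor genes tested (orange). The intervals of Ccl7, Ccl4, Ccl2, Ccr1, Ccr2 and Ccrl2 lie below 0, and those of the other genes include 0.

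Related genes that lie close together were then compared within each array, which removes a constant shared by all log2 values of an array. Scaling that differs with the level is not removed. The value of Ccl4 minus that of Ccl3 was -3.94 and -4.07 in sulforaphane arrays, against -2.92 and -3.13 in DMSO arrays. The groups did not overlap, and the shift between them was -0.98, larger than the gaps of 0.14 and 0.21 within the groups. Because Ccl3 itself differed by 0.007, this shift restates the difference of Ccl4 from the same arrays. The annotated spans of Ccl3 and Ccl4 overlap in RefSeq, and where the probes lie was not examined. Ccl7 minus Ccl2 was -3.33 and -3.45 in sulforaphane arrays, against -2.61 and -3.20 in DMSO arrays. Its shift of -0.48 was smaller than the gap of 0.59 between the DMSO arrays. It was -0.19 without DMSO replicate 1 and -0.78 without DMSO replicate 2.

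Ccl9 minus Ccl6 shifted by -0.014 and Ccl22 minus Ccl17 by 0.049, both with overlapping groups. The exact two-sided permutation test over the 6 splits of 4 arrays gave p = 0.333 for Ccl4 minus Ccl3 and for Ccl7 minus Ccl2, the smallest this design allows, and p = 0.667 for the other pairs. Adjusted over the 4 pairs by Benjamini-Hochberg, each exact p was 0.667. No shift could pass a threshold of 0.05 with 4 arrays, whatever its size.

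**Figure D4:**
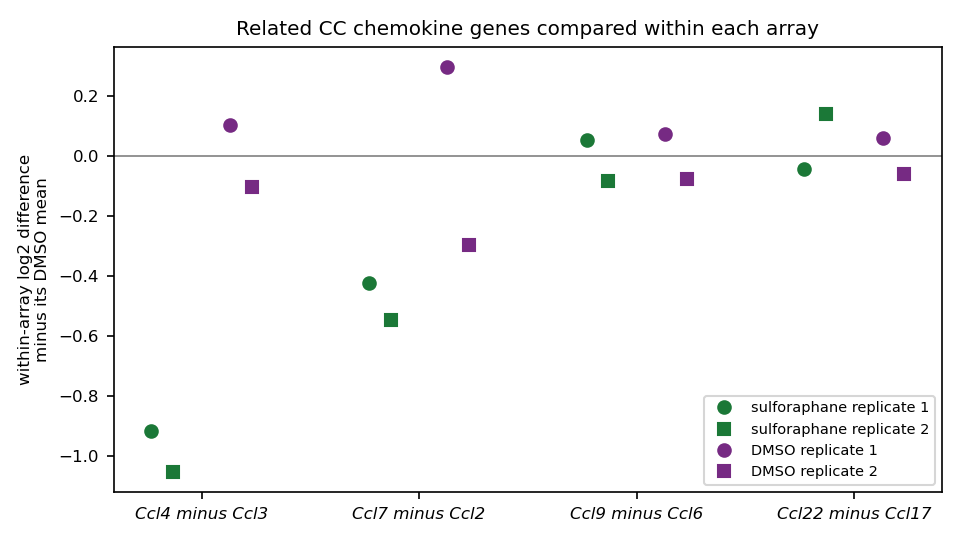
Difference between neighbouring or paired chemokine genes within each array (y axis, log2), set to its DMSO mean, for sulforaphane (green) and DMSO (purple) arrays, with circles for replicate 1 and squares for replicate 2. Ccl4 minus Ccl3 is about 1 log2 unit lower in both sulforaphane arrays, and the last pairs overlap.

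With each array left out in turn, the differences of Ccl2, Ccl4 and Ccl7 had to stay below 0, because their groups did not overlap. Only their size could move. It ran from -0.71 to -0.53 for Ccl2, from -1.01 to -0.94 for Ccl4 and from -1.46 to -0.76 for Ccl7. For 6 of the other 7 genes the sign turned with an array left out, Ccl6 being the exception (-0.030 to -0.0078).

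**Figure D5:**
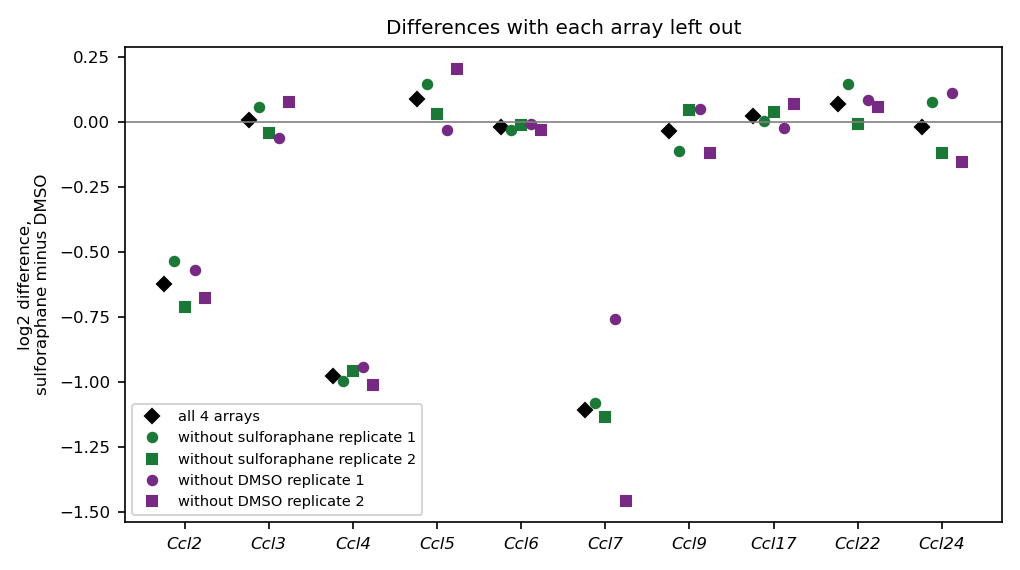
Log2 difference (y axis, sulforaphane minus DMSO) of each chemokine gene (x axis) with all 4 arrays (black diamonds) and with each array left out in turn (circles without replicate 1, squares without replicate 2, coloured by the group of the array left out). Ccl2, Ccl4 and Ccl7, whose groups do not overlap, can only stay below 0 here, and Ccl7 moves most.

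The other CC chemokine genes were at the low end of the scale. Of 14 listed, 9 had a single-symbol probe set and 1 passed the filter on low values, Ccl25, a chemokine known from the thymus and gut, with 5.25 and 5.28 in sulforaphane arrays and 4.98 and 5.26 in DMSO arrays (adjusted p = 0.731 by limma). Ccl12, which like Ccl2 and Ccl7 acts on monocytes through CCR2, had 2.51 and 2.61 against 2.86 and 2.64 and was not tested. Ccl20, the ligand of CCR6, had 2.54 and 2.78 against 2.93 and 2.87 and was not tested either. Higher without overlap, and also not tested, were Ccl1 (2.65 and 2.55 against 2.42 and 2.45) and Ccl27a (2.80 and 2.92 against 2.66 and 2.46). The groups of the other untested genes with a single-symbol probe set overlapped.

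Of 15 genes of CC chemokine receptors and related scavengers 7 were tested, of which 5 lay below 0 and 0 passed limma at the adjusted threshold, with 3 at an unadjusted p under 0.05, all lower. Of all genes, 0.130% passed the adjusted threshold, 13.0% reached that unadjusted p (5.87% lower) and 6714 of 14652 lay below 0. The receptors' median difference was -0.29, against 0.018 over all genes. Ccr1, a receptor of Ccl3, Ccl5, Ccl6, Ccl7 and Ccl9, had 8.19 and 8.08 in sulforaphane arrays, against 8.86 and 8.76 in DMSO arrays. The groups did not overlap, with a difference of -0.67 ± 0.11 (SE, adjusted p = 0.0952 by limma), and Ccr1 was the 1 receptor gene tested that was lower by the 1.5-fold rule, which 1.49% of all genes met.

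Ccr2, the receptor of Ccl2 and Ccl7, had 8.76 and 8.68 in sulforaphane arrays, against 8.95 and 9.51 in DMSO arrays. DMSO replicate 2 was far above the other 3 arrays, and the difference of -0.51 ± 0.19 (SE) had an adjusted p of 0.353 by limma. Ccrl2, an atypical receptor that binds the chemoattractant chemerin, had 9.84 and 9.96 against 10.39 and 10.14 (difference -0.36, adjusted p = 0.334). Ccr4, the receptor of Ccl17 and Ccl22, was dim, with a mean of 3.01 in sulforaphane arrays and 3.30 in DMSO arrays. Ccr7, which takes mature dendritic cells to lymph nodes, had 10.55 and 10.77 in sulforaphane arrays, against 10.62 and 10.51 in DMSO arrays, with overlapping groups.

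Of 23 transcription factors known to act on chemokine genes, 19 were tested and 0 passed limma over all genes, where 0.130% of all genes did. Of the 19, 12 lay below 0 and 7 above, with a median of -0.11, where 6714 of the 14652 genes tested lay below 0. The members with the smallest p were Irf4, a factor of dendritic cell differentiation (-0.87 ± 0.11 SE, adjusted p = 0.0565), Irf7, an activator of interferon genes (-0.54, 0.148), the NF-kB subunit gene Nfkb2 (-0.46, 0.179) and Irf1, whose value was higher (0.47, 0.165). The other NF-kB subunits tested, Rel (-0.30), Relb (-0.37) and Rela (-0.16), had lower values in both sulforaphane arrays, as did 19.5% of all genes, and adjusted p of 0.379, 0.248 and 0.582 by limma.

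Proteins that bind AU-rich or stem-loop elements and speed up or slow down the decay of chemokine mRNAs are another known layer of control. Of 9 genes listed and tested, 6 lay below 0 and 3 above, with a median of -0.12, and 0 passed limma over all genes. Among all genes tested 6714 of 14652 lay below 0 and 0.130% passed. The smallest p belonged to Zfp36l1 (-0.52, adjusted p = 0.150), a destabilizing protein, and to Zc3h12a (-0.41, 0.233), the endonuclease Regnase, followed by Khsrp (-0.25, 0.500) and Rc3h1, the gene of the RNA-binding protein Roquin (0.18, 0.614). Nothing was tested that ties their values to those of the chemokines.

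None of the marker genes of any cell type listed passed limma over all genes, where 0.130% of all genes did. Macrophage markers had 7 of 8 tested genes below 0 and a mean log2 level of 8.49 and 8.52 in sulforaphane arrays, against 8.66 and 8.63 in DMSO arrays. Mast cell and basophil markers had 6 of 7 below 0 and a mean level of 6.84 and 6.96, against 7.12 and 7.08. Neutrophil markers had 7 of 8 above 0 with a median difference of 0.052, 1 of them without overlap. Eosinophil markers had 3 of 5 above 0 with a median of 0.067, all 3 with overlapping groups. The 2 eosinophil genes below 0 were lower without overlap. Over all genes tested 6714 of 14652 lay below 0, 19.5% were lower without overlap and 24.0% higher. Dendritic cell markers had 5 of 9 below 0, all without overlap, and 2 higher without overlap. Their mean level was 8.17 and 8.25 against 8.39 and 8.51. Their summed linear signal, which weighs bright genes such as H2-Ab1 and Itgax most, overlapped, at 8672 and 8896 against 8259 and 8972. B cell markers had 3 of 3 tested genes below 0 and averaged 3.08 and 3.47 against 3.44 and 3.51, near the median of all probe sets. T and NK cell markers had 2 of 3 tested genes below 0 and a summed linear signal of 47.2 and 49.4 against 50.9 and 50.7. Their part in the lower values of Ccl2, Ccl4 and Ccl7 was not tested.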

How the data were processed

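The deposited values are log2 expression per probe set on Affymetrix arrays, which the submitters' processing notes credit to RMA in R 2.15.1. In RMA the background is removed, arrays are brought to 1 distribution and probes are combined per set. That the log base is 2 was inferred from RMA and the values' range. The authors' filters are not given here. Of 41345 probe sets, 23521 had 1 gene symbol, 1814 had several and 16010 were not listed in the platform annotation. All 10 members were matched by Entrez identifier to RefSeq (GRCm38.p6).

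Where a gene had several probe sets the brightest by its 4-array mean stood for it, with a filter at the 40th percentile of all probe set means (2.91). The test was limma 3.58.1 in R 4.3.3 (lmFit, then eBayes) on sulforaphane minus DMSO over all genes, without a replicate block, with Benjamini-Hochberg adjustment at 0.05. The fit had 2 residual and 4.02 prior degrees of freedom. Precision is limited by the number of arrays. The procedure was run on simulated data with and without planted differences, with spreads drawn without regard to expression level. Those runs say nothing about calls where the spread follows the level. Members and lists were chosen with earlier results of these data known. Every member was named, and up to 4 genes per list with the smallest p plus any past the threshold. Any receptor could be named. Rel, Relb, Rela, Ccl1, Ccl12, Ccl20, Ccl27a and the dendritic cell markers were named after their values were seen. Alternatives were other filters, scalings, probe set choices and variance models, a replicate block and each array left out. The figures were drawn with matplotlib 3.10.9.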

Additional observations from a re-analysis of the deposited data

How the results depend on the processing

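The count of CC chemokines past limma's adjusted threshold, 0 with the settings reported, was 1 (Ccl4) with the filter at the 60th percentile, with a second quantile normalization and with probe sets averaged per gene, and 3 with an intensity trend in eBayes. The count over all genes, 19 as reported, was 138, 106, 34 and 249 under these settings in that order. It was 8 with the replicate number as a block and 0 by limma with any array left out (1032 to 2814 genes at an unadjusted p under 0.05). Each of those fits has a group of 1 array, assumed to vary like the other group's 2, so a lost call there says little about stability, Ccl4's highest adjusted p of 0.348 included. The count at 1.5-fold without overlap ran from 523 to 799 with an array left out, against 412. The replicate block left Ccl4 at an adjusted p of 0.0716 and the chemokines called at 0. Same-numbered arrays correlated at -0.063 in their deviations from the group means over all probe sets. No effect shared by replicate number was seen in that value. It cannot tell whether same-numbered arrays came from the same mouse or culture.

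Of the 13 alternatives, only median centring and a second quantile normalization could have turned the sign of Ccl2, Ccl4 or Ccl7. The others left their differences unchanged or left out 1 array of groups that did not overlap. With these scalings, in that order, the differences were -0.60 and -0.64 for Ccl2, -0.96 and -1.01 for Ccl4, and -1.09 and -1.16 for Ccl7. Of the genes near 0, Ccl6 turned to 0.0019 and Ccl24 to 0.00089 with median centring, and Ccl3 to -0.050 and Ccl17 to -0.013 with a second quantile normalization. With an array left out the ranges were -0.062 to 0.077 for Ccl3, -0.029 to 0.206 for Ccl5, -0.12 to 0.053 for Ccl9, -0.023 to 0.069 for Ccl17, -0.0047 to 0.148 for Ccl22 and -0.15 to 0.112 for Ccl24. The shift of Ccl9 minus Ccl6 ran from -0.089 to 0.061 and that of Ccl22 minus Ccl17 from -0.044 to 0.141. Causes were not tested. Since each member had 1 probe set, the probe set choices left its values as they were and acted through the other genes.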

Other observations

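Ccl19, Ccl21a and the Ccl27 genes were also on probe sets annotated with several symbols, which were left out of the tests. Ccl19 was on 13 such probe sets, with values between 2.49 and 3.83, Ccl21a 9, between 3.11 and 3.73, and the Ccl27 genes 11. Some of these probe sets held identical values, leaving 9 distinct for Ccl19, 5 for Ccl21a and 9 for the Ccl27 genes. Their differences between sulforaphane and DMSO ran from -0.22 to 0.264 for Ccl19 and from -0.23 to -0.049 for Ccl21a. For the Ccl27 genes they ran from -0.14 to 0.306. The value of 0.306 is also that of the single-symbol Ccl27a probe set given above, so it is not a separate observation.

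Ccr1l1, a paralogue of Ccr1, had 2.15 and 2.42 in sulforaphane arrays, against 2.99 and 3.06 in DMSO arrays, and Ccr6 had 2.44 and 2.57 against 3.03 and 2.82. Both lay below the filter on low values and were not tested.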
